A study of Homo sapiens with 17 samples.

Results

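The genes described here are 9 keratins that mark the layers of the prostate epithelium: KRT5, KRT14, KRT15, KRT17 and KRT6A of basal cells, KRT8 and KRT18 of luminal cells, and KRT7 and KRT19, which occur in both layers or between them. Their members are the regions of the 3 deposited tables whose overlap mark names one of these genes with an exon, an intron, or a promoter together with either. This gave 50 regions of 326944, with 27 in the HPr1AR table, 15 in the LNCaP table and 8 in the 22Rv1 table.

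Keratins form the intermediate filaments of epithelial cells, and each filament needs a type I and a type II partner. KRT5 pairs with KRT14 in basal cells and KRT8 pairs with KRT18 in simple and luminal epithelium, while KRT6A and KRT17 are known from activated or wounded epithelium. N6-methyladenosine (m6A) is a methyl mark on adenosines of RNA, most often found near stop codons, in long exons and in untranslated ends of messenger RNA, and m6A-seq enriches RNA fragments that carry it with an antibody.

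HPr1AR is a non-malignant human prostate epithelial line, LNCaP an androgen-responsive prostate cancer line and 22Rv1 a castration-resistant one. All were labelled wild type and vehicle treated, and total RNA was pulled down with an m6A antibody or with IgG. The 17 samples form 6 groups of 3 by line and antibody, except the 22Rv1 m6A group, which has 2. HPr1AR was grown in a keratinocyte serum-free medium and both cancer lines in RPMI-1640 with serum, so the line and its medium cannot be told apart. Each line is a single established culture model, and the labels speak of biological triplicates without saying more about them.

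KRT5 is shown by sequence because its regions were listed in 1 line only and its RefSeq promoter window could be matched, as was the case for 2 of the 9 genes. The 250 bases before its start lie on the minus strand of GRCh38.p14 at chr12:52520395-52520644. Capitals mark the one match to ATAAAA, which begins 29 bases before the start.

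KRT5: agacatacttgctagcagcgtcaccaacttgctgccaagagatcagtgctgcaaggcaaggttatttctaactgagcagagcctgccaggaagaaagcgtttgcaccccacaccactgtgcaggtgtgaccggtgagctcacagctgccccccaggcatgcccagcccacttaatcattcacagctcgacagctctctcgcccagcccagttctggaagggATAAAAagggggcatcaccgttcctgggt

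ATAAAA was searched on both strands and occurs in 14.8% of 35116 promoter windows of the same length. No match was found in the KRT5 window to TATAAA, which overlaps ATAAAA by its shared letters and occurs in 10.7% of windows, to GGGCGG (42.6%) or to TGANTCA (6.57%). These matches describe letters only, and the m6A tables hold no value for the promoter DNA.

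Each table gives, per region, a log2 fold and a p-value of its representative window, the window the authors chose to stand for the region, and no value per sample. The folds were found to subtract the log2 reference rate 2 times, so the keratin folds of 16.0 to 25.9 in the HPr1AR table are not enrichments. The whole reads behind them were therefore rebuilt, and the log2 read ratio used below is the numerator rate minus the reference rate, each per rebuilt library depth. Reads that a region or gene is said below to hold are those of a representative window of 20 bp. They are not totals over the region or the gene. The numerator is taken to be the m6A pull-down from the names of the tables, since the headers do not say. Rebuilt depths, in M reads of numerator and reference, were 5.13 and 11.7 in HPr1AR, 3.92 and 8.87 in LNCaP, and 3.30 and 4.82 in 22Rv1. A region is called higher or lower where an exact two-sided binomial test of its reads, adjusted by Benjamini-Hochberg over all regions of the line, is below 0.05. Intervals are exact 95% binomial intervals, and both they and the p-values cover counting error only, not the spread between samples. The authors listed every region as up, and each region is read through the window they chose. Calls, p-values and intervals, here and below, describe these selected windows and do not allow for the selection. Where a p-value was listed at 0, only the smallest reads that reach it are known, the ratio is a lower bound, and a region whose bound does not pass is undetermined.

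All 9 genes had regions in HPr1AR, and only KRT8, KRT18 and KRT19 had any in the cancer lines. KRT5, KRT14, KRT15, KRT17, KRT6A and KRT7 had 0 regions in both the LNCaP and the 22Rv1 table. Of 14731 genes with an exon region in HPr1AR, 1225 (8.32%) had none in either other table, and 6 of the 9 keratins were among them. The tables list regions with few reads (99% of rebuilt LNCaP regions held at least 3 reads and 99% of those of 22Rv1 at least 6), and a gene without a region is not shown to lack RNA. Fewer cells with a transcript and less transcript per cell cannot be told apart in these bulk samples.

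**Figure D1:**
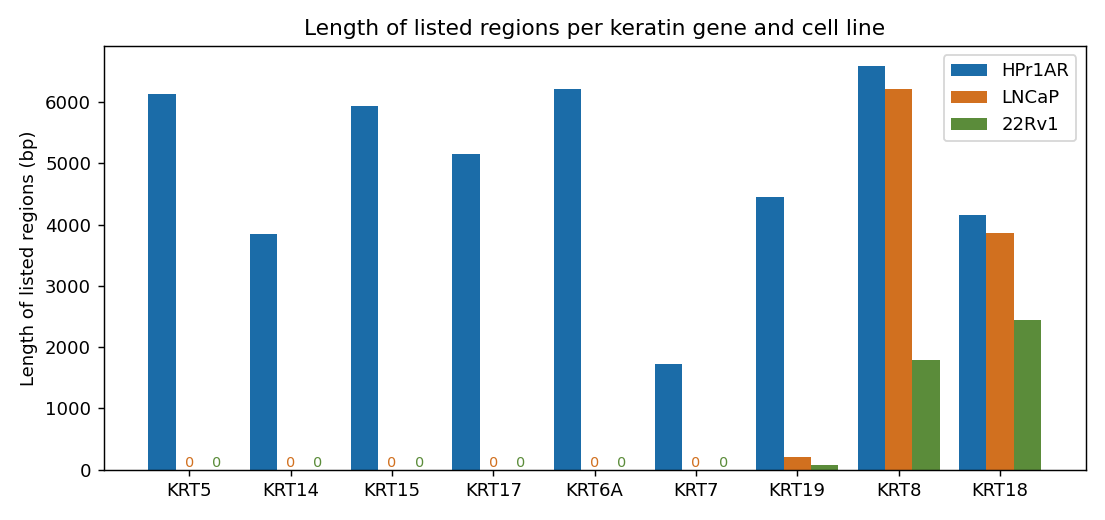
Length of the listed regions (bp, vertical axis) for each keratin gene in HPr1AR, LNCaP and 22Rv1, with bars from 0 and a printed 0 where no region was listed. The first 6 genes from the left have bars in HPr1AR alone, and KRT8 has 6590, 6220 and 1790 bp in the 3 lines.

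In the authors' deposited table, all 27 HPr1AR, 15 LNCaP and 8 22Rv1 keratin regions passed an adjusted p of 0.05, beside 96.5%, 95.4% and 99.3% of all regions. By read ratio, 8 of 27 HPr1AR regions were higher in the numerator, beside 40.6% of all HPr1AR regions. Of the others, 12 were not called and 7 were undetermined, while 48 of all 139373 HPr1AR regions were undetermined. The p-value was listed at 0 in 9 of the 27 keratin regions (33.3%), beside 6.18% of all HPr1AR regions. The HPr1AR shares called higher are therefore not like for like. In LNCaP 4 of 15 were higher, beside 40.2%. In 22Rv1 0 of 8 were higher, beside 56.4%, and 0 of the 8 had an unadjusted exact binomial p under 0.05. No keratin region was called lower, beside 0.122%, 0.144% and 0.936% of the tables.

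The median log2 read ratio of keratin regions with rebuilt reads was 0.85 in HPr1AR (18 regions; all regions 1.19), 1.18 in LNCaP (15 regions; all regions 1.18) and -0.02 in 22Rv1 (8 regions; all regions 2.07). Exon regions of the keratins held more reference reads than most: the medians for HPr1AR, LNCaP and 22Rv1 were 30.5, 32 and 19.5, against 7, 7 and 5 over all exon regions. Among regions with at least 20 reference reads and rebuilt pairs, 3 of 8 were higher in HPr1AR (all such regions 39.5%), 2 of 5 in LNCaP (36.9%) and 0 of 4 in 22Rv1 (40.7%). The medians and these counts leave out the 9 HPr1AR keratin regions with p listed at 0. All of these values are descriptions, and whether keratins differ from other genes was not tested.

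**Figure D2:**
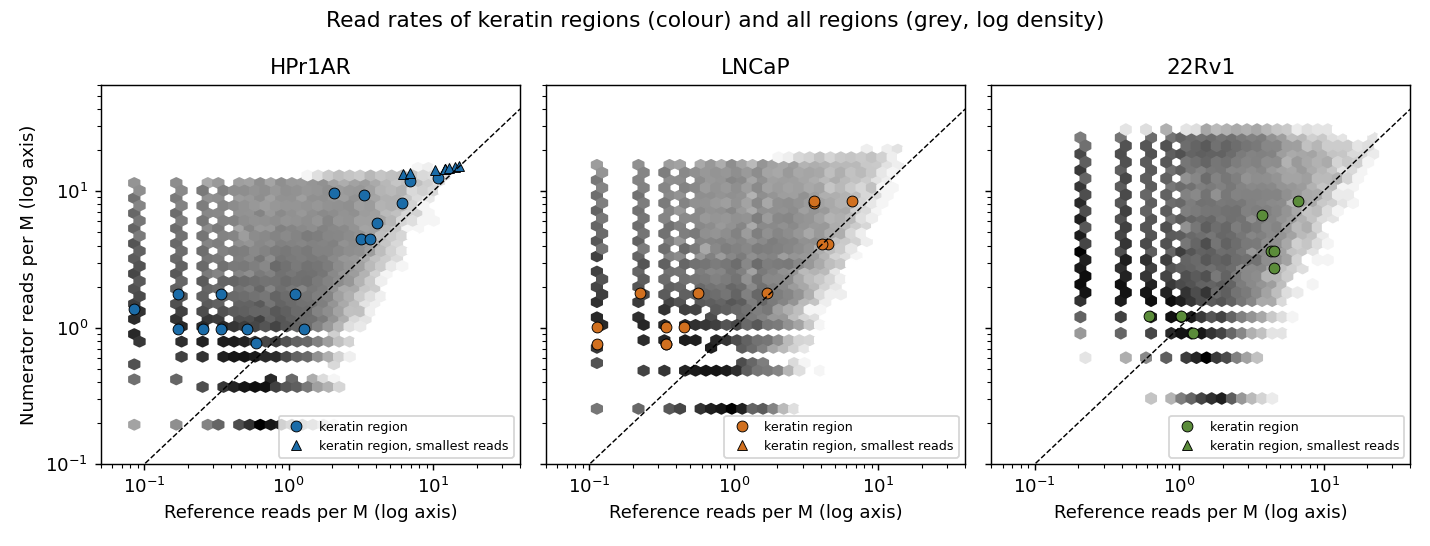
Reads per M reads of depth in the numerator (vertical, log axis) against the reference (horizontal, log axis) for keratin regions (colour) over the density of all regions with rebuilt reads (grey), 1 panel per line, with equal rates on the dashed line. Triangles are the 9 HPr1AR regions with p listed at 0, drawn at their smallest reads, and 1 LNCaP region with 0 reference reads is not drawn.

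KRT5, the type II filament protein of basal cells, had 2 HPr1AR regions that together covered 6130 bp of chromosome 12. They were equal in length, 3070 bp each, and overlapped by 10 bp. The region over the gene's later exons (chr12:52908361-52911430) held at least 75 numerator and 142 reference reads, a log2 read ratio of at least 0.27. The region over its start (chr12:52911421-52914490) held at least 77 and 166 reads, a ratio of at least 0.08. Both had their p-value listed at 0 and both ratios were undetermined. The representative windows of KRT5 thus held many reads in both pull-downs. Whether the KRT5 rate was higher in the numerator cannot be read from the table.

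KRT14, the type I partner of KRT5, was similar over its main region. That region (chr17:39738521-39741420) held at least 76 numerator and 150 reference reads, a log2 read ratio of at least 0.21, and was undetermined. A second exon region, at chr17:39742551-39743140, held 23 and 43 reads, a ratio of 0.29 (-0.51 to 1.05), and was not called. All KRT14 regions also carry marks of JUP, which encodes plakoglobin of the desmosome and lies on the same strand. The counting is not stated to use strand, and strand would not separate JUP from KRT14. KRT14 also has near-identical stretches in KRT16 and KRT17, so how reads were divided among these genes is uncertain.

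KRT15, a type I keratin of basal and progenitor cells, gave the most higher calls of the 9 genes in HPr1AR, with 4 of its 6 regions. The region at its end (chr17:39670021-39671120) held 61 numerator and 81 reference reads, a log2 read ratio of 0.78 (0.28 to 1.28, adjusted exact binomial p = 0.00568). The next region (chr17:39671481-39673940) held at least 69 and 72 reads, a ratio of at least 1.13. The third (chr17:39674331-39675920) held at least 70 and 81 reads, a ratio of at least 0.98. These 3 regions lie side by side, and their intervals or lower limits are above 0. The ratio of the end region was below the median of 1.19 over all HPr1AR regions. Both bounds lie below that median too, though the ratios behind them may be above it. Set against the median, 1 of the 27 HPr1AR keratin regions stayed higher, beside 21.6% of all regions. Of the 27, only the KRT6A start region, described below, had an interval wholly above that median (1.52 to 3.02). An upstream intron region at chr17:39676981-39677620 was also higher with 9 and 2 reads (3.36, 1.09 to 6.61), a wide interval set by few reads.

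KRT17, a type I keratin of activated epithelium, had 2 regions of 2580 bp each in HPr1AR. Its later region (chr17:39775681-39778260) held at least 78 numerator and 176 reference reads, a log2 read ratio of at least 0.02, and was undetermined. The region over its start (chr17:39778251-39780830) held 64 and 126 reads, a ratio of 0.21 (-0.24 to 0.66), and was not called. Both KRT17 regions also carry JUP marks.

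KRT6A, a type II keratin of activated epithelium, had 2 regions in HPr1AR, and only the region over its start was called. Over its start (chr12:52884051-52887160) it held 50 numerator and 24 reference reads, a log2 read ratio of 2.25 (1.52 to 3.02, adjusted exact binomial p = 4.98e-10). Its later region (chr12:52880951-52884060) held at least 75 and 141 reads, a ratio of at least 0.28, and was undetermined. No test was made between them, since the second is only a bound. KRT6A shares long near-identical stretches with KRT6B and KRT6C, and the division of reads among them is uncertain. KRT6B itself had a higher exon region in HPr1AR with 52 and 40 reads (1.57), while the single KRT6C region, with 5 and 4 reads, was not called.

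KRT7, a type II keratin of simple and ductal epithelium, had few reads in its representative windows in HPr1AR. One exon region of 3 was higher (chr12:52638181-52639420), where 9 numerator and 4 reference reads gave 2.36 on the log2 scale (0.52 to 4.51, adjusted exact binomial p = 0.0128). The region at its start held 5 and 2 reads (2.51, -0.10 to 5.90), and the third held 4 and 7 reads (0.38, -1.84 to 2.36). Neither of these was called, and the third also overlaps KRT86.

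KRT19, a small type I keratin found in both layers, was listed in all 3 lines with very different lengths. It covered 4460 bp in HPr1AR, 200 bp in LNCaP and 80 bp in 22Rv1. In HPr1AR its regions at chr17:39679851-39682220 and chr17:39682551-39684640 held at least 74 and 121 reads and at least 75 and 142 reads. Both were undetermined, with ratios of at least 0.48 and at least 0.27. In the cancer lines the shared exon region held 7 and 5 reads in LNCaP (1.66, -0.21 to 3.66) and 4 and 3 reads in 22Rv1 (0.96, -1.60 to 3.73), neither called. A promoter-side intron region of 60 bp was higher in LNCaP with 5 numerator and 0 reference reads. Its log2 read ratio was 1.91 with the 0 set to a floor of 3 reads, and the lower limit of its interval was 1.05. All KRT19 regions also carry JUP marks.

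KRT8, the type II keratin of luminal cells, was listed in all 3 lines with 7, 12 and 5 regions. The region over the first exon of the main gene body (chr12:53298461-53298850 in HPr1AR) held 48 numerator and 39 reference reads in HPr1AR, 33 and 32 in LNCaP, and 22 and 18 in 22Rv1. Its log2 read ratio was 1.49 (0.85 to 2.14) in HPr1AR, 1.22 (0.48 to 1.97) in LNCaP and 0.84 (-0.13 to 1.82) in 22Rv1. It was higher in HPr1AR and LNCaP (adjusted exact binomial p = 1.04e-05 and 0.00249) and not called in 22Rv1 (0.119). The intervals of the 3 lines overlap, and no test was made between lines because their tables were made separately.

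At the gene end the KRT8 region (chr12:53290981-53291380 in HPr1AR) held 30 and 48 reads in HPr1AR, 16 and 40 in LNCaP, and 12 and 21 in 22Rv1. Its log2 read ratio was 0.51 (-0.20 to 1.20), -0.14 (-1.08 to 0.72) and -0.26 (-1.42 to 0.83), and it was not called in any line. The first exon region was above the end region by 0.98, 1.37 and 1.10 log2 units, the same direction in 3 of 3 lines. Fisher's exact test on the reads, two-sided and chosen after these ratios were seen, gave p = 0.0422, 0.0161 and 0.158, or 0.0633, 0.0483 and 0.158 adjusted over the 3 lines. The LNCaP call depends on how reads were rebuilt: with the pair nearest to the deposited fold the end region holds 25 and 50 reads, the difference is 1.04 and the adjusted exact p is 0.0633.

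**Figure D3:**
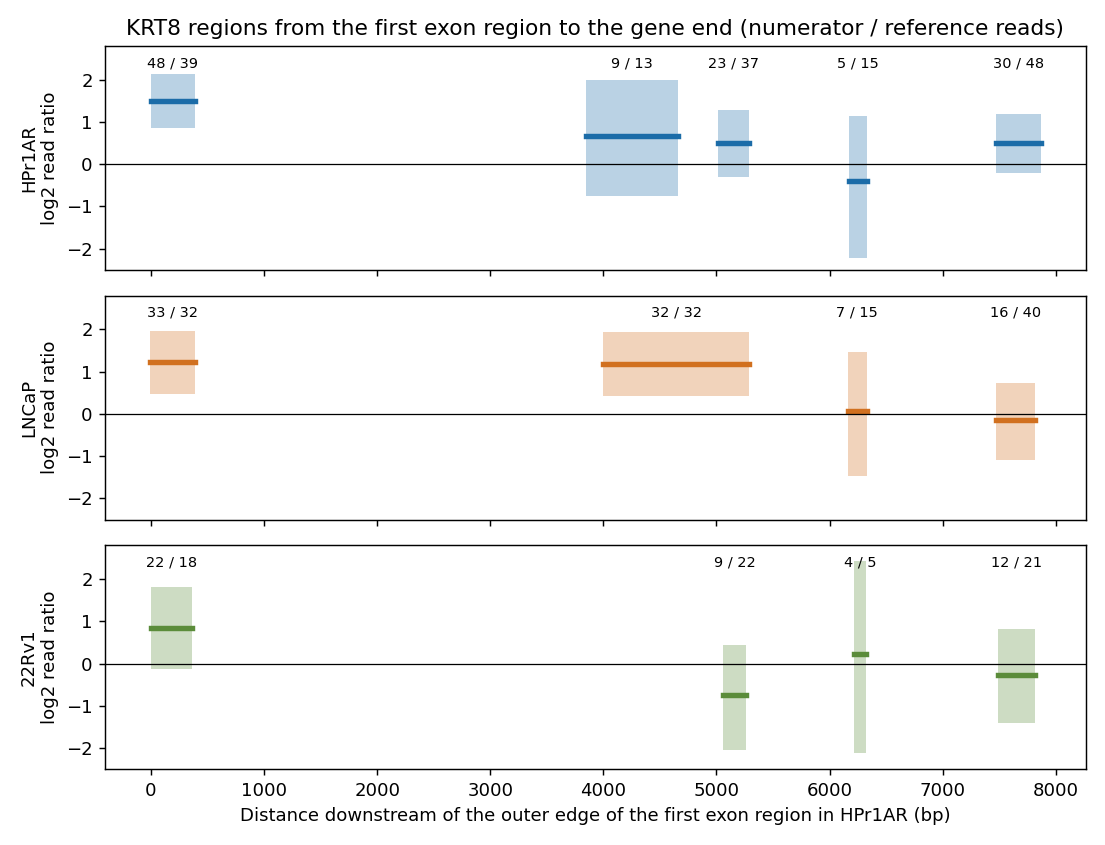
Log2 read ratio (vertical) of KRT8 regions against distance downstream of the outer edge of the first exon region (horizontal, bp), 1 panel per line, with bars for the ratio, shading for the exact 95% interval and the numerator and reference reads above. The leftmost bar is at 1.49, 1.22 and 0.84 and the rightmost at 0.51, -0.14 and -0.26 in HPr1AR, LNCaP and 22Rv1.

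Between these ends, a short exon region of KRT8 near chr12:53292521 held 5 and 15 reads in HPr1AR (-0.39), 7 and 15 in LNCaP (0.08) and 4 and 5 in 22Rv1 (0.23), none called. A further exon region starting at chr12:53293561 was higher in LNCaP with 32 and 32 reads (1.18, 0.42 to 1.93, adjusted exact binomial p = 0.00505). In HPr1AR the matching stretch was listed as 2 regions of 23 and 37 reads (0.50) and of 9 and 13 reads (0.66), and in 22Rv1 as 1 of 9 and 22 reads (-0.74), none called. Far upstream, toward KRT18, LNCaP listed 7 intron regions of KRT8 with 3 to 7 numerator reads each. Of these, 1 was higher (chr12:53337011-53337330, 7 and 2 reads, 2.98, 0.59 to 6.29). HPr1AR listed 1 such region, also higher, with 7 and 1 reads (interval 1.04 to 9.49), and 22Rv1 listed none. Processed copies of KRT8 and KRT18 are spread over the genome, and how the authors' alignment divided such reads is not given in the sources used here.

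KRT18, the type I partner of KRT8, lies beside it on chromosome 12 on the opposite strand, and its region with the most reads carries exon marks of both genes. That region held 42 numerator and 71 reference reads in HPr1AR (chr12:53342521-53346680), 33 and 58 in LNCaP, and 28 and 32 in 22Rv1. Its log2 read ratio was 0.43 (-0.15 to 1.00), 0.36 (-0.30 to 1.00) and 0.35 (-0.43 to 1.13), close in size in the 3 lines and not called in any. The LNCaP value again depends on the read pair: the pair nearest to the deposited fold is 66 and 82 reads, a ratio of 0.86 that is called higher (adjusted exact binomial p = 0.00163). The end of KRT18 was listed as a separate region in the cancer lines, with 16 and 36 reads in LNCaP (0.01, -0.94 to 0.89) and 12 and 22 in 22Rv1 (-0.33, -1.48 to 0.75), neither called. A small 22Rv1 region of 3 and 6 reads (-0.45, -3.08 to 1.77) was not called. The small region and both end regions also carry a KRT8 mark.

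**Figure D4:**
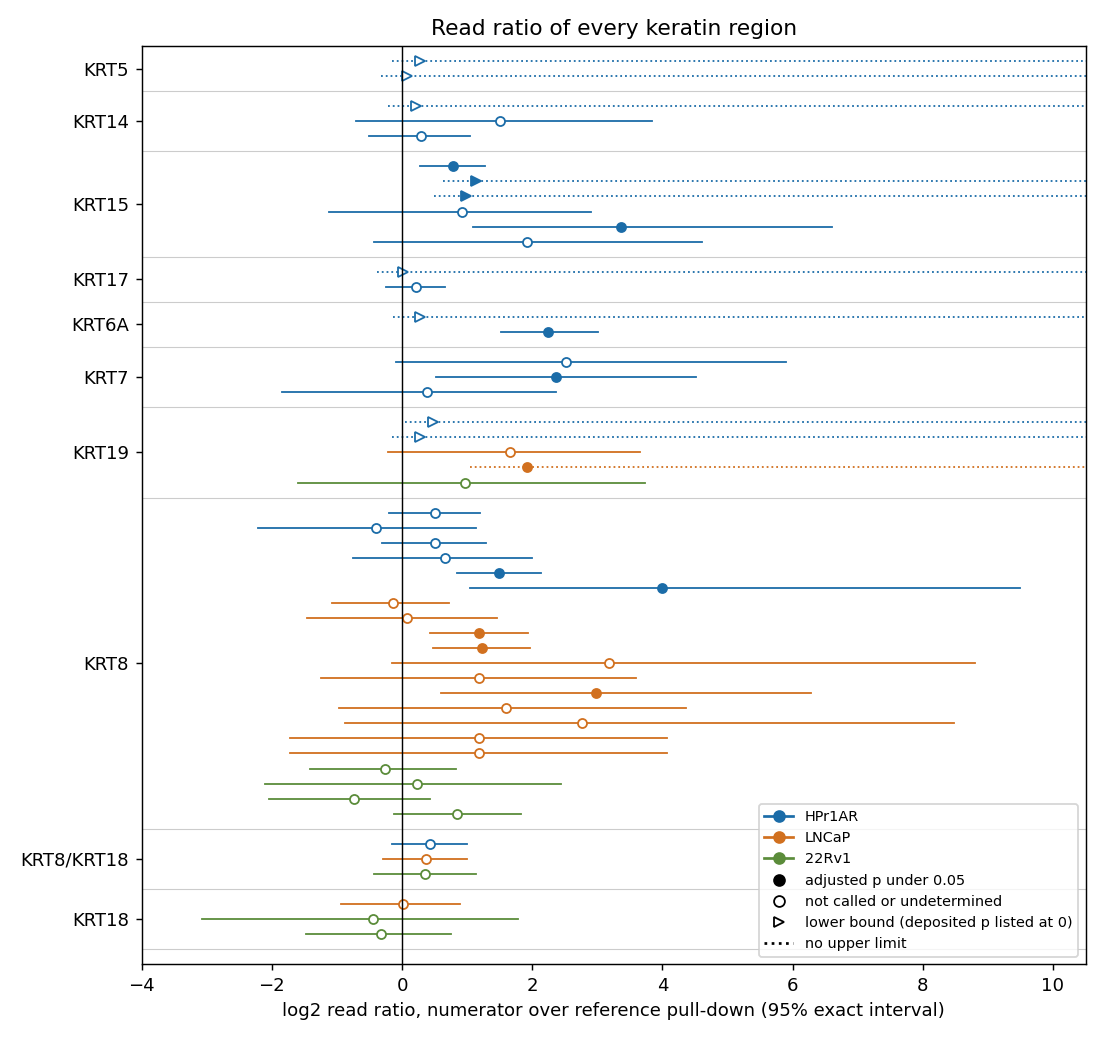
Log2 read ratio (horizontal) of each of the 50 keratin regions with its exact 95% interval, grouped by gene and coloured by line; filled points have an adjusted p under 0.05, triangles are lower bounds and dotted lines have no upper limit. HPr1AR has 8 filled points, of which 4 lie in KRT15, LNCaP has 4 and 22Rv1 has 0.

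Region positions were compared between lines by overlap. All 8 regions of 22Rv1 overlapped a region of the same gene in HPr1AR and in LNCaP by at least 1 bp, while 9 of 15 LNCaP regions overlapped one of HPr1AR and 9 of 27 HPr1AR regions overlapped one of LNCaP. Over all regions with an exon or intron mark, by the same rule, 82.1% of 22Rv1 regions overlapped one of HPr1AR and 82.0% one of LNCaP, 69.1% of LNCaP regions overlapped one of HPr1AR and 52.0% of HPr1AR regions one of LNCaP. By the summed length of exon regions over the 3 lines, the genes most like KRT5 (6140 bp in HPr1AR, with the 10 bp overlap counted in both regions, and 0 elsewhere) were MN1, SLC2A9 and ZNF516, with 6120, 6090 and 6080 bp in HPr1AR and 0 in the cancer lines. Those most like KRT8 (6200, 4730 and 1790 bp) were GPR161, NHP2 and PTPN13.

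Of 16 other keratins, 11 were listed in HPr1AR and 10 of them had a region called higher. The numbers were 2 and 1 in LNCaP and 1 and 1 in 22Rv1. Of all genes listed in HPr1AR, LNCaP and 22Rv1, 93.1%, 90.9% and 91.2% had such a region. None of the 16 other keratins had a region called lower. Over regions, 31 of their 41 HPr1AR regions were higher (all regions 40.6%). Many of these belong to KRT80 or to the overlapping genes KRT81 and KRT86. By smallest adjusted p in an exon region, the leading genes were KRT80, with at least 60 numerator and 9 reference reads (at least 3.93), and KRT81 and KRT86, which share a region of 33 and 2 reads (5.23, 3.27 to 8.34). KRT13, a keratin of stratified mucosa, held at least 66 and 43 reads (at least 1.81). In the cancer lines KRT80 had 6 and 0 reads in LNCaP. Its log2 ratio was 2.18 with the 0 set to the floor of 3 reads, and the lower limit was 1.41. KRT10 had 24 and 47 reads in LNCaP (0.21, not called) and 17 and 3 in 22Rv1 (3.05, higher).

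Of 22 genes of desmosomes, plakins, which tie filaments to junctions, and other filaments, the HPr1AR table listed 22, that of LNCaP 18 and that of 22Rv1 19. Each listed gene had a region called higher, beside 93.1%, 90.9% and 91.2% of all genes listed in HPr1AR, LNCaP and 22Rv1. Genes that also had a region called lower numbered 1, 1 and 2. In HPr1AR 136 of 391 of their regions were higher, in LNCaP 86 of 211 and in 22Rv1 93 of 156, or 34.8%, 40.8% and 59.6%, near the shares of 40.6%, 40.2% and 56.4% over all regions. EPPK1, the plakin epiplakin, held 58 or more numerator reads and 1 or more reference reads in HPr1AR, with a lower limit of 4.51 for the log2 read ratio at the smallest reads. In 22Rv1 it held 85 and 3 reads (5.37, 3.78 to 7.68). PKP1, DSG3 and DSC3, desmosome genes of stratified epithelium, had no region in either cancer line.

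Markers were counted to check the labelled cell types. All 5 basal markers were listed in HPr1AR, while TP63 and ITGB4 had no region in LNCaP or 22Rv1 and CDH3 had none in LNCaP. The other basal markers were present in the cancer lines: ITGA6 and LAMB3 were listed and called higher in both, and CDH3 was called higher in 22Rv1 with 75 and 3 reads (5.19, 3.59 to 7.50). The luminal markers KLK3, KLK2, FOLH1 and TMPRSS2 had regions in both cancer lines and none in HPr1AR. HOXB13 had regions in all 3 lines and was called higher in HPr1AR too, with 40 and 1 reads (6.51, 3.95 to 11.85). Of 4 fibroblast markers, 1, 2 and 1 were listed in HPr1AR, LNCaP and 22Rv1, and of 3 immune markers none in any line.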

How the data were processed

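Regions, log2 folds, p-values and adjusted p-values are the authors' deposited values, 1 table per line; per the file headers they describe windows merged into regions, while the aligner, the read counter and the statistical test were not given in the sources used here. Window numbers are deposited too. The submitters' processing notes name hg38, yet 0 of 53 gene and region pairs lay inside the gene's GRCh38 span, so region positions are printed as the files give them, in a build they do not name. 0 columns of per-sample values were left unused. The design used the authors' calls and, where possible, reads rebuilt from them.

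The deposited log2 fold followed log2(a + prior) - 2 log2(b + prior) plus a constant, with whole reads a and b. Whole pairs with up to 400 numerator reads were found for 100%, 98.8% and 99.997% of regions with p above 0 in HPr1AR, LNCaP and 22Rv1, and still for 1.60%, 20.6% and 2.03% after a random shift of the folds. LNCaP reads are therefore the least certain. Depths follow from the fitted constants if priors scale with depth, which was not checked against sequenced reads.

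The planned rule took the pair nearest to the deposited fold. It was replaced, after member values had been seen, by a joint score of the fold and of the p-value expected at that read level. In simulated regions of at least 50 reads, the final rule returned the exact reads in 80.3% of LNCaP cases (nearest fold: 43.8%), 100% in HPr1AR and 98.9% in 22Rv1; the simulation used the same trend of p-values as the rule. Calls at a simulated log2 ratio of 1 were made in 6.38%, 8.61% and 8.57% of regions in HPr1AR, LNCaP and 22Rv1. At a ratio of 4 they were made in 97.3%, 95.6% and 93.8%. Most simulated regions were given equal rates, while 40.6%, 40.2% and 56.4% of the real regions were called higher. The Benjamini-Hochberg cut was therefore stricter in the simulation than for the real regions.

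The members, lists and tests were chosen with earlier results of these data known. All 9 members are named. Of the other keratins and of the desmosome list, up to 4 genes per line with the smallest adjusted p in an exon region could be named, and up to 3 for each marker list; KRT6B and KRT6C are named beyond that rule as near-identical copies of KRT6A, and list genes without a region as gaps. One gene of the marker lists is not reported here. Likeness is the smallest distance of log2(exon region length + 100 bp) over 3 lines. Software was Python 3.11.15, numpy 2.4.6, pandas 2.3.3, scipy 1.17.1 and matplotlib 3.10.9.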

Additional observations from a re-analysis of the deposited data

How the results depend on the processing

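The authors' passing counts, the counts called higher and the overlaps stayed within 1.5 times of the reported values except as follows. Multiplying p by the number of windows left 4 regions higher in HPr1AR and 1 in LNCaP (all regions 29.4% and 28.0%), and setting ratios against the median of the line left 1 and 0 (all regions 21.6% and 21.8%). With exon marks only, 7 LNCaP regions passed in the authors' deposited table and 2 were higher, beside 44.5% of all LNCaP exon regions. With a unique read pair required, 2 of the 15 LNCaP regions were higher, beside 32.9% of all LNCaP regions. At 50% reciprocal overlap, 22Rv1 shared 4 regions with HPr1AR and 5 with LNCaP. The pair rules tried before the final one were all chosen or kept after values were seen. They gave 5 of 15 higher regions in LNCaP (the KRT8/KRT18 region added), beside 40.9% to 41.2% of all regions. In HPr1AR they gave 8 and in 22Rv1 0, beside 40.6% and 56.4% of all regions. Under each of the 3 rules the LNCaP difference between KRT8 start and end was 1.04 and no longer passed. Taking the region with the largest deposited fold moved the leading KRT18 region of 22Rv1 to -0.45, and gave uncalled regions for KRT7 in HPr1AR (2.51) and KRT8 in LNCaP (3.18). No paired analysis was possible because the tables hold no value per sample, and no replicate could be left out for the same reason. At the read numbers of the whole tables, 6.38%, 8.61% and 8.57% of simulated regions with a log2 ratio of 1 were called in HPr1AR, LNCaP and 22Rv1. Most simulated regions had equal rates, which made the adjusted cut stricter than for the real regions. These rates therefore do not give the rate of calls among real regions. Keratin exon regions hold more reads, and their rate was not simulated.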
